A study of Saccharomyces cerevisiae with 24 samples.

Results

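The genes described here encode the cytosolic and mitochondrial molecular chaperones of Saccharomyces cerevisiae and the cofactors that work with them. A list of 37 gene symbols defined them, and each gene was read through the brightest probe set that names it alone. Of the 37 genes, 35 had such a probe set, among 5656 genes tested on the whole array, and no gene was removed for low signal. SSB1 and SSB2 share 1 probe set that names both, so they are given as signals without a test.

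Total RNA of 24 cultures was read on 1-colour Affymetrix YG_S98 arrays, with 3 biological replicates (a, b and c) in each of 8 groups. The control strain YSS37 is MATa, carries IFH1-13myc-TRP1 under the gene's own promoter, and was sampled at 0, 30 and 60 min. The strain YSS89 is MATa, carries the same tagged gene as UASGAL1-IFH1-13myc-TRP1, with HIS3-UASGAL1 in place of the IFH1 upstream activating sequence, and was sampled at 0, 20, 30, 40 and 60 min. All cultures grew in log phase at 30 °C in YPLG medium and then received galactose to 2%. Both strains carry the tag and the TRP1 marker, and each strain is 1 construct with no second isolate among these arrays. The labels give no unit for time, and minutes are assumed. The study's title names Ifh1 as an activator of ribosomal protein (RP) genes, and the comparison of strains asks what follows when galactose switches IFH1 on.

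Chaperones bind proteins that are not folded, help them to fold, and pull apart or sort those that clump. In yeast the Hsp70 and Hsp90 systems, their J-protein and nucleotide-exchange partners, and the Hsp104 disaggregase do this in the cytosol, while the Ssb proteins with Zuo1 and Ssz1 sit on the ribosome and the CCT ring folds actin and tubulin. Many of the stress-inducible members are driven by the heat shock factor Hsf1, and several also by the general stress factors Msn2 and Msn4, whereas the ribosome-bound and CCT genes are not typical heat shock genes.

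The labels were checked first. IFH1 signal in YSS89 was 23, 21.7 and 34.6 at 0 min and 1355, 1305 and 1436 at 20 min, against 15.9, 17.6 and 28.9 at 0 min and 41.6, 39.8 and 33.3 at 60 min in YSS37, and GAL1, the galactokinase gene, was called higher after galactose in both strains. Of 7 genes specific to a cells, MFA1, MFA2, STE2, STE6, BAR1 and AGA2 had group means of 35.7 to 791, and ASG7 only 0.767 to 11.3. MFA1 was higher in YSS89 than in YSS37 at 60 min (1.96, SE 0.318, adjusted p = 0.000194). Replicates a, b and c at 0 min of YSS89 read 290, 74.9 and 108 for MFA1 and 933, 398 and 386 for MFA2. At 0 min of YSS37 the signals were 71.9, 89.1 and 72.7 for MFA1 and 470, 496 and 607 for MFA2. On the later YSS89 arrays MFA1 read 231 to 444. Of 4 genes specific to the other mating type, MF(ALPHA)1, MF(ALPHA)2 and STE3 had group means of at most 9.77 and SAG1 of 18.6 to 33.2. HIS3 read 15.5, 17.9 and 17.4 at 0 min in YSS89 and 7.3, 3.1 and 4.2 in YSS37. TRP1 read 442, 446 and 490.5 at 0 min in YSS89 and 299, 293 and 366 in YSS37. The file headers give 4 hybridization times, called rounds here. Round 1 held 8 of the 9 YSS37 arrays, rounds 2 and 3 held 7 arrays each, and round 4 held only 2 arrays of YSS89 at 0 min, replicates b and c. On these 2 arrays the ribosomal RNA control signal was 313 and 90.9, against 560 to 1056 on the other 22. The headers record 1 chip lot for all 9 YSS37 arrays and 2 other lots for YSS89, with none recorded for the 2 arrays of round 4. No recorded lot held both strains, so lot and strain cannot be told apart. Each array reads the RNA of a whole culture scaled to a common level, so a change in some cells, in all cells, or in the RNA content per cell cannot be told apart.

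Changes are given as log2 differences between group means of quantile-normalized log2(signal + 1.4), with the standard error (SE) and an adjusted p from limma, Benjamini-Hochberg over the 5656 genes. A gene is called, and said to rise or fall, at an adjusted p under 0.05. Shares of all genes called higher and lower are given for the normalized values alone. Splits on deposited values or with arrays centred on their medians have no such share beside them, and the median of all genes moves with the scaling. The signals of single arrays are the deposited linear intensities, listed for replicates a, b and c in that order. For 5 bright probe sets (SSA1, SSA2, HSC82, CPR1, YDJ1) deposited differences are added where they move a value by over 1.5 times or change a call. Other members also lost calls on deposited values. Over the hour these were SIS1, ZUO1, CCT3 and CCT7 in YSS89 and HSP60 in YSS37. Against 0 min in YSS89 they were SSE1 and TCP1 at 20 min and CCT5 at 40 min. At 30 min they were CCT2, CCT4, CCT6, CCT8, HSP60 and SSZ1.

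Over 60 min of galactose in YSS37, 12 of the 35 chaperone genes rose and 10 fell, while 21.1% and 20.5% of all genes did. In YSS89, 17 rose and 8 fell, with 23.9% and 19.8% of all genes. The median log2 difference of the members was -0.093 in YSS37 and 0.35 in YSS89, beside 0.01 and 0.075 over all genes. The strains agreed on 12 genes that rose (SSA2, SSE1, ZUO1, SSZ1, YDJ1 and 7 of the 8 CCT subunit genes) and 6 that fell (SSE2, HSP104, HSP42, HSP26, HSP78 and MDJ1), and 1 gene, BTN2, was called in opposite directions. Of all genes 12.3% rose and 12.4% fell in both strains, and 1.04% were called in opposite directions. On deposited values 11 rose and 6 fell in both. With arrays centred on their medians 5 rose and 5 fell in both, and none of the CCT genes was called in YSS37. The YSS37 split was then 5 higher and 12 lower, and the YSS89 split 18 and 5.

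By 30 min in YSS37 5 members had risen and 5 had fallen, beside 14.4% and 12.4% of all genes, and with median centring the split was 3 and 7. The early risers were SSA2 (1.58), YDJ1 (1.18), SSE1, SSZ1 and CCT5, and HSP42 (-1.01), SSA4, SSE2, HSP104 and HSP78 had fallen. The calls of SSZ1, CCT5, SSA4, SSE2 and HSP78 were each lost without at least 1 single array, and also with only the groups compared. The other 5 remained with any 1 array left out. Of the 25 calls over the hour in YSS89, 18 remained without the round 4 arrays and 15 with the round as a block, and all kept their sign in both. The calls lost in both were those of BTN2, CCT3, CCT7, CPR6, MDJ1, SIS1 and ZUO1, and CCT4, CCT5 and HSP78 were lost with the block alone.

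**Figure D1:**
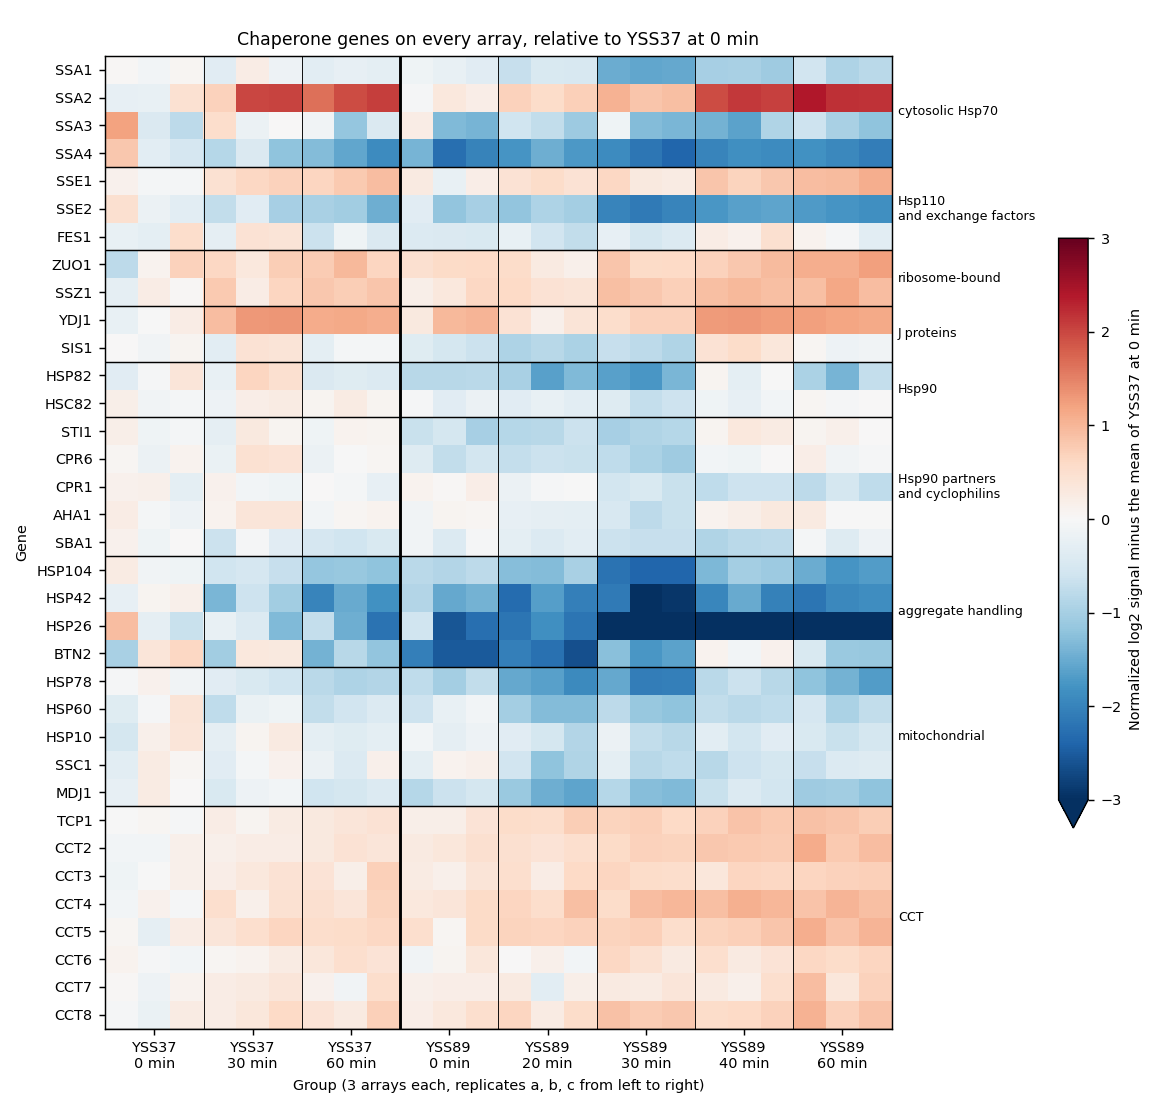
Normalized log2 signal of the 35 chaperone genes (rows, by role) on each of the 24 arrays (columns, 3 per group), minus the gene's mean in YSS37 at 0 min. Colours run from -3 to 3, and HSP26 falls below the scale on all 9 YSS89 arrays from 30 min on. In YSS89 the HSP82, SIS1, STI1 and HSP104 rows are bluest at 30 min or earlier and paler at 40 min.

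**Figure D2:**
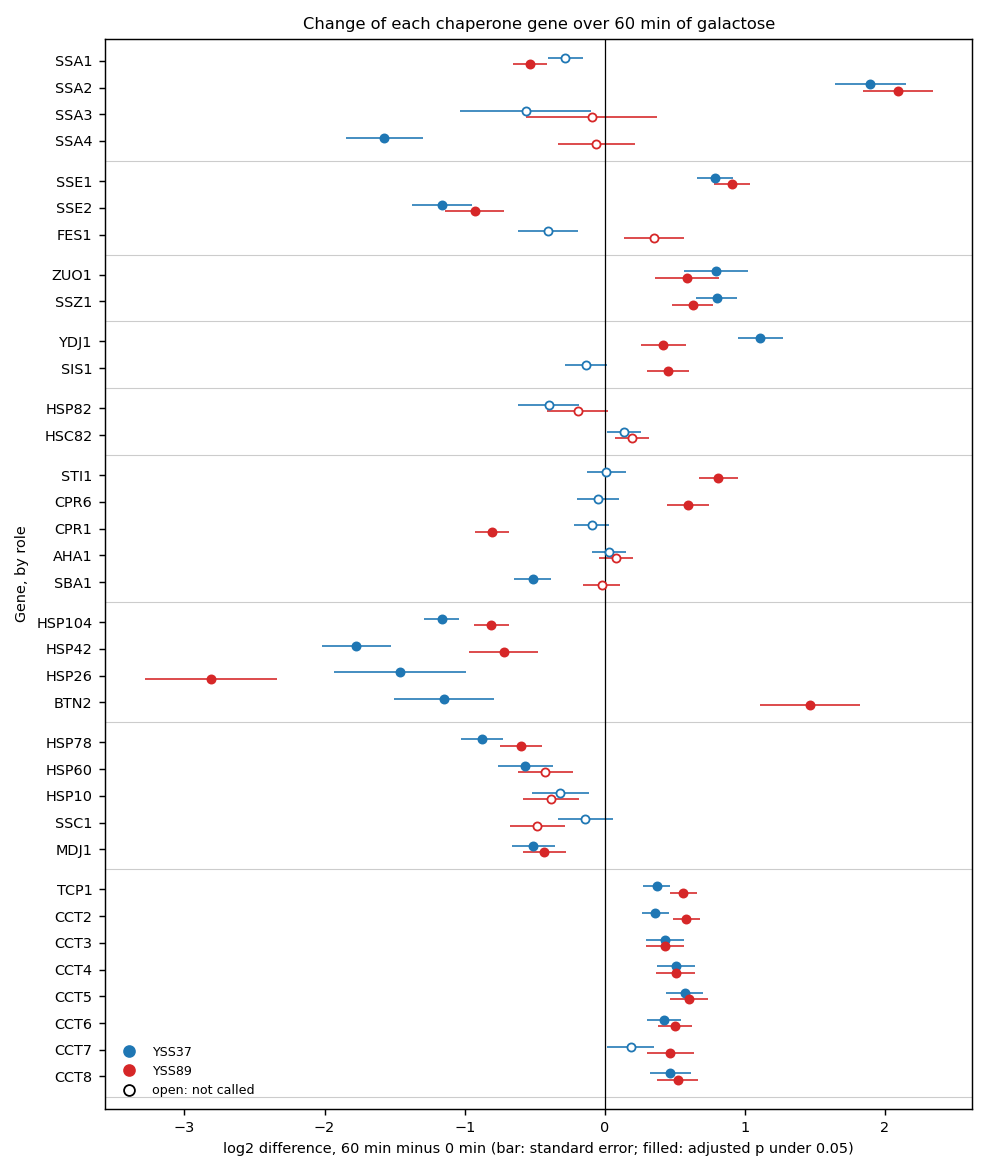
The log2 difference between 60 and 0 min (horizontal axis) of each chaperone gene (vertical axis, by role) in YSS37 (blue) and YSS89 (red), with the SE as a bar and filled points for called genes. The CCT genes lie right of 0 in both strains, SSE2, HSP104, HSP42, HSP26, HSP78 and MDJ1 lie left of it, and BTN2 lies on opposite sides.

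Among the cytosolic Hsp70 genes, SSA2, which encodes a constitutive Hsp70, rose strongly in both strains. Its signal in YSS37 was 649.6, 658 and 974 at 0 min, 1109, 2796 and 2880 at 30 min and 2085, 2534 and 2962 at 60 min. In YSS89 it was 674, 846 and 757 at 0 min, 1172, 1083 and 1171 at 20 min, 1721, 1485 and 1585 at 30 min, 3320.2, 3872 and 3564 at 40 min and 4636, 3539.8 and 3898 at 60 min. In both strains every later array lay above every array at 0 min, and in YSS37 replicate a at 30 min stood well under b and c. The log2 difference over 60 min was 1.90 (SE 0.25, adjusted p = 5.47e-06) in YSS37 and 2.09 (SE 0.25, adjusted p = 1.55e-06) in YSS89, which is 3.72-fold and 4.26-fold. On deposited values the differences were 1.74 and 2.40, both called. The difference of these responses was 0.20 (SE 0.354, adjusted p = 0.761) and was not called.

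SSA1, the near-identical paralog of SSA2 and also constitutive, had no stable direction over the hour. Its signal in YSS37 was 4299, 3437 and 3850.2 at 0 min, 2919.8, 5141 and 4345 at 30 min and 3299.8, 3631 and 4002 at 60 min. In YSS89 it was 3085, 2713 and 2551 at 0 min, 1944, 1807 and 1912 at 30 min, 2731, 2834 and 2566 at 40 min and 3786, 2658 and 3078 at 60 min. The 30 min arrays of YSS89 were the lowest of all 24, without overlap. The normalized log2 difference at 60 min in YSS89 was -0.53 and called, but it was 0.18 on deposited values and 0.29 with median centring, both not called. Between YSS89 and YSS37 at 30 min it was -1.43 (SE 0.124, adjusted p = 6.19e-08), and it stayed called at -1.09 on deposited values. A probe set that names SSA1 and SSA2 together read 739.5, 601 and 626 at 30 min and 1059, 1142 and 1299.5 at 40 min in YSS89. The paralogs are near-identical in sequence, so signal shared between their probe sets cannot be told apart.

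SSA4, the strongly heat-inducible Hsp70, fell in YSS37 and started low in YSS89. Its signal in YSS37 was 286, 122 and 111 at 0 min, 83, 103 and 60.3 at 30 min and 59.7, 50.1 and 37.8 at 60 min, and all 3 arrays at 60 min lay below those at 0 min. In YSS89 it was 62.3, 34.6 and 42.7 at 0 min and 43.5, 40.4 and 37.2 at 60 min, with overlapping groups. SSA4 fell by 1.57 (SE 0.275, adjusted p = 0.000117) in YSS37, while its difference in YSS89 was -0.062 (SE 0.275, adjusted p = 0.875), not called. SSA3, another stress-inducible Hsp70, was not called in any of the comparisons. Its replicates spread widely, from 76.7 to 339 in YSS37 at 0 min and from 58.2 to 170 in YSS89 at 0 min.

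The nucleotide-exchange factors of the Hsp110 class went opposite ways. SSE1, the constitutive Hsp110, read 512, 448 and 444 at 0 min and 716, 769 and 856 at 60 min in YSS37. In YSS89 it read 524, 395 and 497 at 0 min and 783, 802 and 898 at 60 min. SSE2, its stress-inducible paralog, read 598, 375 and 346 at 0 min and 206, 189 and 139 at 60 min in YSS37 and 326, 181 and 216 at 0 min, 96, 89.6 and 95.1 at 30 min and 122, 118 and 110.5 at 60 min in YSS89. The 60 min arrays of SSE1 were all above and those of SSE2 all below the 0 min arrays of the same strain. SSE1 rose by 0.79 (SE 0.128, adjusted p = 5.9e-05) in YSS37 and 0.90 (SE 0.128, adjusted p = 1.14e-05) in YSS89. SSE2 fell by 1.16 (SE 0.211, adjusted p = 0.00018) in YSS37 and 0.93 (SE 0.211, adjusted p = 0.00146) in YSS89. FES1, an exchange factor of cytosolic Hsp70, was not called over the hour in either strain. At 40 min in YSS89 its log2 difference from 0 min was 0.71 (SE 0.214, adjusted p = 0.01), and that call was lost without replicate c at 40 min of YSS89 (range 0.61 to 0.79 with any 1 array left out). It was also lost without both round 4 arrays (0.69), with the round as a block (0.82) and within round 2.

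Both ribosome-bound genes with a probe set of their own rose over the hour in both strains. ZUO1, the J protein of the ribosome-associated complex, read 245, 467 and 682 at 0 min and 717, 801 and 663 at 60 min in YSS37. The YSS89 arrays read 557, 582 and 572 at 0 min and 825, 810 and 905 at 60 min. SSZ1, its Hsp70-like partner, read 188, 269.9 and 244 at 0 min and 397, 368 and 396 at 60 min in YSS37 and 262, 284 and 349 at 0 min and 397, 469 and 399.8 at 60 min in YSS89. All 60 min arrays of SSZ1 lay above the 0 min arrays, whereas for ZUO1 replicate c of YSS37 at 60 min (663) lay under replicate c at 0 min (682). SSZ1 rose by 0.80 (SE 0.146, adjusted p = 0.000193) in YSS37 and 0.63 (SE 0.146, adjusted p = 0.00182) in YSS89. ZUO1 rose by 0.79 (SE 0.23, adjusted p = 0.00885) in YSS37 and 0.58 (SE 0.23, adjusted p = 0.0453) in YSS89. The YSS37 call of ZUO1 was lost without replicate a at 0 min of YSS37 (range 0.40 to 1.13 with any 1 array left out), and the YSS89 call was lost without any of the 6 arrays of the comparison (range 0.54 to 0.61 with any 1 array left out). Its YSS89 call was also lost on deposited values.

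SSB1 and SSB2 encode the Hsp70s that meet the new chain at the ribosome. Their shared probe set read 1248, 1604 and 1619 at 0 min and 1879, 1989 and 2176 at 60 min in YSS37. In YSS89 the signals were 1531, 1427 and 1737 at 0 min, 2854, 2562 and 2743 at 30 min and 2298, 2270.1 and 2589.6 at 60 min, and all 30 min arrays lay above every array at 0 min of either strain. On the normalized scale the group means differed by 0.33 between 60 and 0 min in YSS37 but by 0.0011 between 30 and 0 min in YSS89, so this bright probe set depends on the scaling as well.

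Of the J-protein genes, YDJ1 rose over the hour in both strains and SIS1 in YSS89. YDJ1, the main J protein of the Ssa Hsp70s, read 699.6, 798 and 897 at 0 min, 1344, 1846 and 1979 at 30 min and 1602, 1568 and 1663 at 60 min in YSS37. In YSS89 it read 901, 1214 and 1251 at 0 min, 1064, 876 and 1027 at 20 min, 1194, 1365 and 1412 at 30 min, 2082, 2239 and 2096 at 40 min and 1962, 1828 and 1817 at 60 min. In YSS37 the arrays at 30 and 60 min lay above those at 0 min, while in YSS89 the 40 min arrays were the highest and stood clear of the 30 min arrays. YDJ1 rose by 1.11 (SE 0.158, adjusted p = 1.32e-05) over the hour in YSS37. In YSS89 its log2 difference was 0.42 (SE 0.158, adjusted p = 0.038) after normalization and 0.75 on deposited values, where it was also called. The normalized call was lost without replicate a at 0 min or a, b or c at 60 min of YSS89 (range 0.18 to 0.55 with any 1 array left out).

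SIS1, an essential J protein that also holds Hsf1 in check through Hsp70, read 564, 513 and 569.8 at 0 min, 429, 728 and 698 at 30 min and 433, 516 and 521 at 60 min in YSS37. YSS89 gave 409.7, 379 and 345 at 0 min, 265, 284 and 267 at 20 min, 294, 277 and 251 at 30 min, 675, 707 and 633 at 40 min and 522, 454 and 459 at 60 min. All 40 min arrays of YSS89 stood above every array of the other YSS89 times. Its log2 difference over the hour was -0.13 (SE 0.149, adjusted p = 0.5) in YSS37, not called, and 0.45 (SE 0.149, adjusted p = 0.0187) in YSS89, a call lost without replicate c at 0 min or a at 60 min of YSS89 (range 0.39 to 0.52 with any 1 array left out). That YSS89 call was also lost on deposited values.

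HSP82, the inducible Hsp90 gene, was lower at 30 min and higher at 40 min than at 0 min in YSS89 (-0.76 and 0.76, both called). Both calls were lost without the round 4 arrays (-0.75 and 0.77), with the round as a block (-0.69 and 0.82) and within round 2. Its signal there was 336, 332 and 339 at 0 min, 278, 181 and 221 at 20 min, 172, 158 and 202 at 30 min, 586, 438 and 541 at 40 min and 298, 214 and 328 at 60 min. In YSS37 it was 489.8, 592 and 769 at 0 min, 499.5, 953 and 828 at 30 min and 429.6, 464 and 434 at 60 min. No YSS37 array fell as low as the YSS89 arrays at 30 min, and over the whole hour HSP82 was called in neither strain (-0.40 and -0.19). HSC82, the constitutive Hsp90 gene, read 2112, 1879.5 and 1819.9 at 0 min and 2358, 2652 and 2656 at 60 min in YSS37. In YSS89 it read 1671, 1468 and 1596 at 0 min and 2976, 2628 and 2829.8 at 60 min, with all 60 min arrays above those at 0 min in both strains. Its normalized hour difference was not called in either strain, but on deposited values it was 0.40 in YSS37 and 0.83 in YSS89, both called.

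The Hsp90 partners STI1 and CPR6 rose over the hour in YSS89, and in YSS37 their differences were near 0. STI1, which bridges Hsp70 and Hsp90, read 1099.9, 872 and 873 at 0 min and 834, 966 and 976 at 60 min in YSS37. The YSS89 arrays read 569.8, 618 and 459.7 at 0 min, 425, 460.5 and 480.4 at 30 min, 961, 1176 and 1046 at 40 min and 953, 977 and 889 at 60 min. The 60 min groups of the strains overlapped, and the 0 min and 30 min arrays of YSS89 lay below all YSS37 arrays. Its log2 difference over the hour was 0.81 (SE 0.139, adjusted p = 0.000101) in YSS89 and 0.01 (SE 0.139, adjusted p = 0.965) in YSS37, and the difference of the responses was called at 0.80 (SE 0.197, adjusted p = 0.011). CPR6, an Hsp90-bound cyclophilin, read 400.4, 325 and 359 at 0 min, 278, 247 and 224 at 30 min, 475, 443 and 496 at 40 min and 569, 469 and 487 at 60 min in YSS89. CPR6 rose by 0.59 (SE 0.15, adjusted p = 0.00331) in that strain.

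The other Hsp90 partners and the cyclophilin CPR1 gave differing results. AHA1, the activator of the Hsp90 ATPase, read 294, 337 and 329 at 0 min, 201, 166 and 177 at 30 min and 317, 332 and 361 at 40 min in YSS89, with the 30 min arrays below all others. It fell by 0.65 (SE 0.121, adjusted p = 0.00022) at 30 min, a call lost with the round as a block (-0.46) and within round 2, and was not called over the hour in either strain. SBA1, the p23 homolog, read 756, 661 and 728 at 0 min and 493, 464 and 513 at 60 min in YSS37. In YSS89 the signals were 606, 494 and 612 at 0 min, 344, 369 and 368 at 40 min and 612, 491 and 569 at 60 min. SBA1 fell by 0.51 (SE 0.133, adjusted p = 0.00388) over the hour in YSS37, and in YSS89 it was lower at 40 min (-0.65) and not called at 60 min. CPR1, the cytosolic cyclophilin A, read 2453, 2269.9 and 2538 at 0 min and 1925, 2369 and 2099 at 60 min in YSS89. Its normalized difference of -0.81 was called, but on deposited values it was -0.19 and not called.

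The genes that handle aggregates gave the widest range of changes. HSP104, the disaggregase, read 407, 314 and 311 at 0 min, 217, 221 and 192 at 30 min and 142, 138 and 135 at 60 min in YSS37. In YSS89 it read 198, 178 and 201 at 0 min, 130.4, 128 and 162 at 20 min, 67.3, 60.2 and 57.9 at 30 min, 125, 150.5 and 149 at 40 min and 114, 95.7 and 102 at 60 min. Neighbouring YSS37 times did not overlap, and the 30 min arrays of YSS89 stood apart at the bottom. HSP104 fell by 1.17 (SE 0.124, adjusted p = 4.18e-07) over the hour in YSS37 and by 0.81 (SE 0.124, adjusted p = 2.63e-05) in YSS89. It was the only member called between 30 and 60 min in YSS37, where 0 rose and 1 fell beside 0.636% and 2.26% of all genes, and that call (-0.57) was lost without replicate b at 30 min of YSS37 (range -0.62 to -0.52 with any 1 array left out).

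HSP42 and HSP26 encode the small heat shock proteins that coat aggregates. HSP42 read 499, 626 and 627 at 0 min and 135, 186 and 149 at 60 min in YSS37. YSS89 gave 311, 195 and 217 at 0 min, 118, 64.9 and 68.3 at 30 min, 138, 182 and 134 at 40 min and 118, 140.4 and 148 at 60 min, and the arrays at 30, 40 and 60 min lay below those at 0 min. HSP26 read 1993, 1116 and 840.4 at 0 min, 1101, 1069 and 550.5 at 30 min and 810.3, 502 and 285 at 60 min in YSS37. In YSS89 HSP26 read 849.5, 234 and 295 at 0 min, 276, 362 and 286 at 20 min, 153, 106 and 92.7 at 30 min, 46, 56.9 and 55.7 at 40 min and 84.4, 43.1 and 45.3 at 60 min. The 40 and 60 min arrays of HSP26 in YSS89 were under all arrays of the earlier times and of the other strain, whereas replicate a at 0 min was far above b and c. HSP42 fell by 1.77 (SE 0.246, adjusted p = 9.79e-06) in YSS37 and 0.72 (SE 0.246, adjusted p = 0.022) in YSS89, and HSP26 fell by 1.46 (SE 0.471, adjusted p = 0.0171) in YSS37 and fell by 2.81 (SE 0.471, adjusted p = 7.58e-05) in YSS89, a 7.03-fold decrease. The YSS37 call of HSP26 was lost without replicate a at 0 min or c at 60 min of YSS37 (range -1.83 to -0.99 with any 1 array left out), and the YSS89 call of HSP42 was lost without replicate a at 0 min or a at 60 min of YSS89 (range -0.85 to -0.52 with any 1 array left out).

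BTN2, a sorting factor for misfolded proteins, was the only member whose calls over the hour had opposite signs. In YSS37 it read 66.6, 202 and 247 at 0 min, 70.1, 177 and 178 at 30 min and 52.5, 78 and 60.9 at 60 min, and replicate a was low at 0 and 30 min. In YSS89 it read 37.3, 27.1 and 28.4 at 0 min, 34.4, 28.9 and 22.4 at 20 min, 59.5, 42.6 and 46.1 at 30 min, 157, 134 and 160.2 at 40 min and 109, 70.9 and 69.9 at 60 min. The 0 min groups of the strains did not overlap, and their 60 min groups did. BTN2 fell by 1.14 (SE 0.357, adjusted p = 0.014) in YSS37, a call lost without replicate b or c at 0 min or a at 60 min of YSS37 (range -1.64 to -0.83 with any 1 array left out). It rose by 1.47 (SE 0.357, adjusted p = 0.00247) in YSS89, and the difference of the responses was 2.61 (SE 0.505, adjusted p = 0.00201). Without the round 4 arrays the YSS89 rise of BTN2 was 1.15 and not called, and the difference of responses was 2.29 and called.

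**Figure D3:**
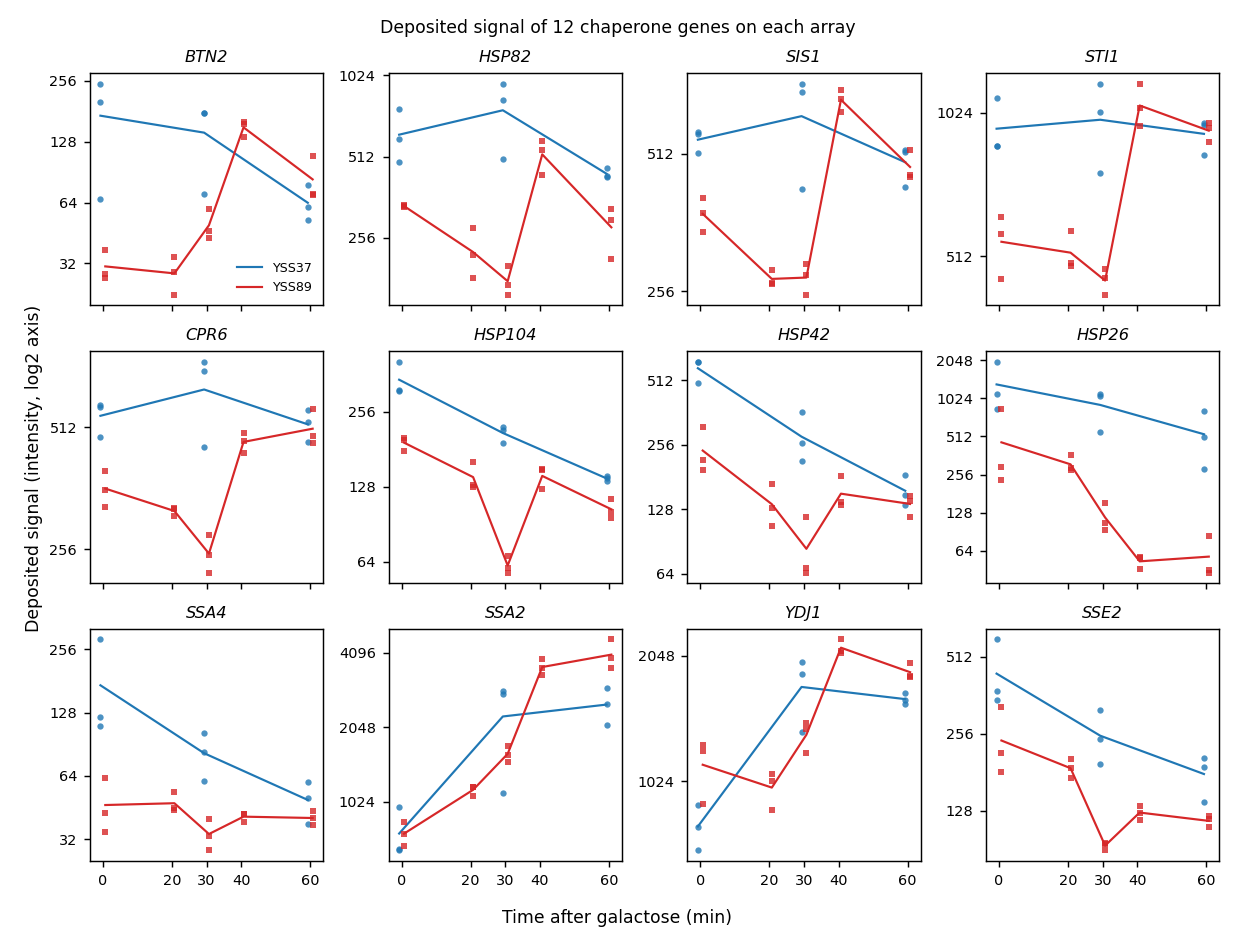
Deposited signal (vertical axis, log2 scale) against time after galactose (horizontal axis, min) for 12 chaperone genes, with a point per array and a line through the group means, YSS37 in blue and YSS89 in red. BTN2, HSP82, SIS1, STI1, CPR6 and HSP104 climb between 30 and 40 min in YSS89, and the HSP26 mean of YSS89 is lower at 40 than at 0 min.

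Mitochondrial chaperone genes fell early in YSS89. In YSS37 3 of 5 fell over the hour (HSP78, HSP60 and MDJ1), beside 20.5% of all genes, with log2 differences from -0.88 to -0.14. The HSP60 call was lost on deposited values and without replicate c at 0 min or a or b at 60 min of YSS37. The MDJ1 call was lost without replicate b at 0 min of YSS37. Both were also lost with only the groups compared. In YSS89 4 of 5 fell by 20 min, beside 10.4% of all genes, with differences of -0.90 to -0.41 over the 5. At 60 min 2 of 5 were called lower, HSP78 and MDJ1, beside 19.8% of all genes. HSP78, the matrix disaggregase, read 139, 166 and 142 at 0 min and 80, 71.8 and 73.4 at 60 min in YSS37. The YSS89 arrays read 91.5, 76.9 and 96 at 0 min, 49.4, 44.9 and 37.4 at 20 min, 49, 33.2 and 33.7 at 30 min, 85.3, 92.7 and 84.9 at 40 min and 63.3, 55.8 and 47.2 at 60 min, so that its 40 min arrays overlapped those at 0 min. HSP60, the matrix chaperonin, read 1074, 1258 and 1352 at 0 min and 945, 768 and 763 at 20 min in YSS89. SSC1, the matrix Hsp70 of protein import, read 326, 424 and 429 at 0 min and 251, 162 and 197 at 20 min, and MDJ1, its J protein, read 111, 129.8 and 143 at 0 min and 87.3, 66.5 and 63.1 at 20 min.

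All 20 min arrays of these 4 genes lay below the 0 min arrays of YSS89. At 20 min HSP78 fell by 0.86 (SE 0.15, adjusted p = 0.000553), HSP60 by 0.90, SSC1 by 0.88 and MDJ1 by 0.71. The HSP60 call was lost with median centring. Without replicates b and c at 0 min only HSP78 was called, at -0.94, and HSP60, SSC1 and MDJ1 were -0.59, -0.60 and -0.52. The 20 min arrays had the highest ACT1 3′ to 5′ probe ratio (1.52 to 1.58, against at most 1.49 on the others), and its part in the result was not tested. HSP10, the co-chaperonin of Hsp60, was not called over the hour in either strain (-0.32 and -0.38).

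The CCT genes, whose 8 products form the cytosolic chaperonin ring, rose by modest amounts in both strains. In YSS37 7 of 8 rose over the hour, beside 21.1% of all genes, with a median log2 difference of 0.42 and a range of 0.18 to 0.57. In YSS89 8 of 8 rose, beside 23.9% of all genes, with a median of 0.51 and a range of 0.43 to 0.60. The YSS89 calls of CCT3 and CCT7 were lost on deposited values. TCP1 read 308, 325 and 309.7 at 0 min and 379, 386 and 405 at 60 min in YSS37 and 347, 347 and 399.5 at 0 min and 517, 503 and 468 at 60 min in YSS89. CCT5 read 242, 195 and 278 at 0 min and 320.5, 321 and 343 at 60 min in YSS37 and 330.2, 244 and 344 at 0 min and 467, 388 and 433 at 60 min in YSS89. For both genes the 60 min arrays of a strain were all above its 0 min arrays. In YSS37 the deposited signals of CCT3 overlapped (126 in b at 60 min, 135 in c at 0 min), as did those of CCT8 (199 and 211). The YSS37 calls of CCT3 and CCT8 were lost with the round as a block and within round 1. CCT3 was also lost without replicate a at 0 min or c at 60 min, and CCT8 without b at 0 min or c at 60 min.

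CCT7, the member with the lowest YSS37 value, was 0.18 (SE 0.169, adjusted p = 0.404) there and not called, and its YSS89 call (0.47) was lost without replicate a, b or c at 0 min or a or c at 60 min of YSS89 (range 0.33 to 0.62 with any 1 array left out). With median centring the 8 YSS37 differences stayed above 0 but ran from 0.068 to 0.32 with 0 called, while in YSS89 all 8 were called. The difference of responses at 60 min was called for 0 of 8 CCT genes, and their values ran from -0.0032 to 0.28. With median centring 2 of 8 were called higher.

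**Figure D4:**
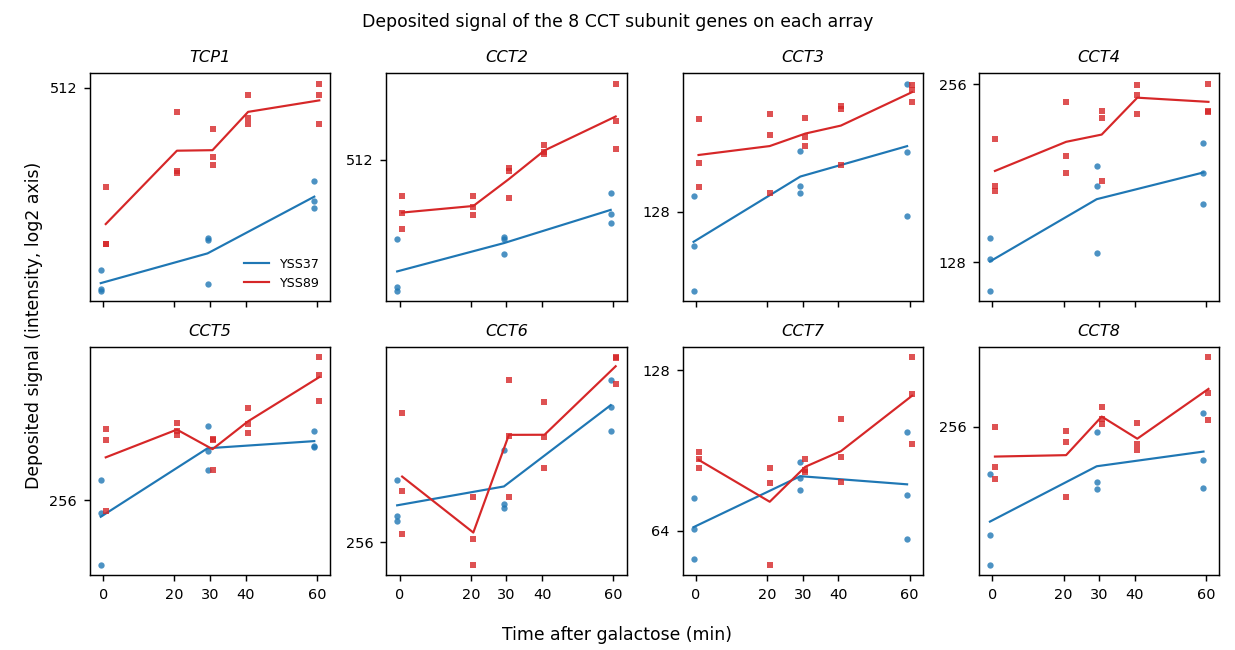
Deposited signal (vertical axis, log2 scale) of the 8 CCT subunit genes against time after galactose (horizontal axis, min), with a point per array and a line through the group means, YSS37 in blue and YSS89 in red. The lines end above their start in both strains, and no CCT gene was called between 30 and 40 min.

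The course of YSS89 had a low point and a jump. Against 0 min, 2 members were higher and 5 lower at 20 min (7.6% and 10.4% of all genes), and 7 were higher and 14 lower at 30 min (22.4% and 23.6%). At 40 min 14 were higher and 7 lower (23.9% and 21.5%), and from 20 to 60 min 13 rose and 4 fell (13.6% and 11.4%). On deposited values the 20 min split was 0 higher and 8 lower and the 30 min split 2 and 13. With median centring the 20 min split was 5 higher and 3 lower, and the 30 min split 9 higher and 10 lower. HSC82 and CPR1 count among the 14 lower at 30 min, but their direction depends on the scaling. On deposited values they were 0.31 and 0.18, not called, and with median centring 0.47 and 0.34, both called higher. The lowest normalized values against 0 min at 30 min were those of HSP26 (-1.65), HSP104 (-1.50), HSP42 (-1.42) and SSA1 (-1.29). The HSP26 call was lost without replicate a at 0 min of YSS89 (range -2.03 to -1.04 with any 1 array left out). SSA1 was -0.56 on deposited values, still called, and -0.39 with median centring, not called.

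Steps between neighbouring times were compared after this course had been seen. From 20 to 30 min 1 member rose and 6 fell (9.0% and 12.4% of all genes), with 0 and 7 under median centring. From 30 to 40 min 14 rose and 0 fell, beside 3.59% and 1.75% of all genes. From 40 to 60 min 1 rose and 3 fell (0.796% and 1.29%). The members' median from 30 to 40 min was 0.27, beside 0.0095 over all genes. HSP104, SSA1 and AHA1 were called lower in the step to 30 min and higher in the step to 40 min.

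The 14 genes that rose from 30 to 40 min were SSA1, SSA2, YDJ1, SIS1, HSP82, HSC82, STI1, CPR6, AHA1, HSP104, HSP42, BTN2, HSP78 and MDJ1. They hold both Hsp90 genes, both cytosolic J-protein genes and 3 of the 4 aggregate-handling genes, and no CCT or ribosome-bound gene. The HSC82 call among them depends on the scaling, as given below. For all 14 the 3 arrays at 40 min lay above the 3 at 30 min, and this held for 19 of the 35 members, while 3 members had them below. The share of all genes was not counted, so the separation adds no support to the calls. BTN2 rose by 1.59 (SE 0.357, adjusted p = 0.0106), HSP82 by 1.51 (SE 0.218, adjusted p = 0.000258), SIS1 by 1.23 (SE 0.149, adjusted p = 4.48e-05), HSP104 by 1.18 (SE 0.124, adjusted p = 1.08e-05), STI1 by 1.13 (SE 0.139, adjusted p = 5.16e-05) and HSP78 by 1.12 (SE 0.15, adjusted p = 0.00012). SSA2 rose by 1.11, CPR6 by 0.86 and AHA1 by 0.84. The BTN2 call was lost without replicate b at 30 min of YSS89 (range 1.48 to 1.73 with any 1 array left out), and those of SSA1, YDJ1, HSC82, HSP42 and MDJ1 without several of the 6 arrays, while 8 of the 14 calls remained with any 1 array left out.

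Replicate a at 30 and 40 min lay in round 2, and replicates b and c in round 3, so the step could be read within each round. All 14 differences were above 0 in both rounds. The separation of the 40 min from the 30 min arrays already fixed these signs, so they add no support. Within round 3, with 2 arrays at each of these times, 9 of the 14 remained called. For HSP82 the differences were 1.71 in round 2 and 1.41 in round 3, for BTN2 1.37 and 1.70, and for SIS1 1.12 and 1.29. On deposited values 12 of the 14 remained called, without HSC82 and SSA1. With median centring 11 did, without HSC82, SSA1 and HSP42, and no member fell under either scaling. The HSC82 call was also lost with a replicate block. From 40 to 60 min HSP82 fell by 0.95 (SE 0.218, adjusted p = 0.0243), HSP78 by 0.67 (SE 0.15, adjusted p = 0.0211) and HSP104 by 0.49 (SE 0.124, adjusted p = 0.0424), while SBA1 rose by 0.63 (SE 0.133, adjusted p = 0.015). The HSP82 call was lost without replicate a or c at 40 min or a or b at 60 min of YSS89 (range -1.10 to -0.77 with any 1 array left out). The HSP78 call was lost without replicate a or b at 40 min or b or c at 60 min of YSS89 (range -0.78 to -0.55 with any 1 array left out), the HSP104 call without replicate b or c at 40 min or b or c at 60 min of YSS89 (range -0.58 to -0.42 with any 1 array left out), and the SBA1 call without replicate a or b at 40 min or a or c at 60 min of YSS89 (range 0.56 to 0.72 with any 1 array left out).

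**Figure D5:**
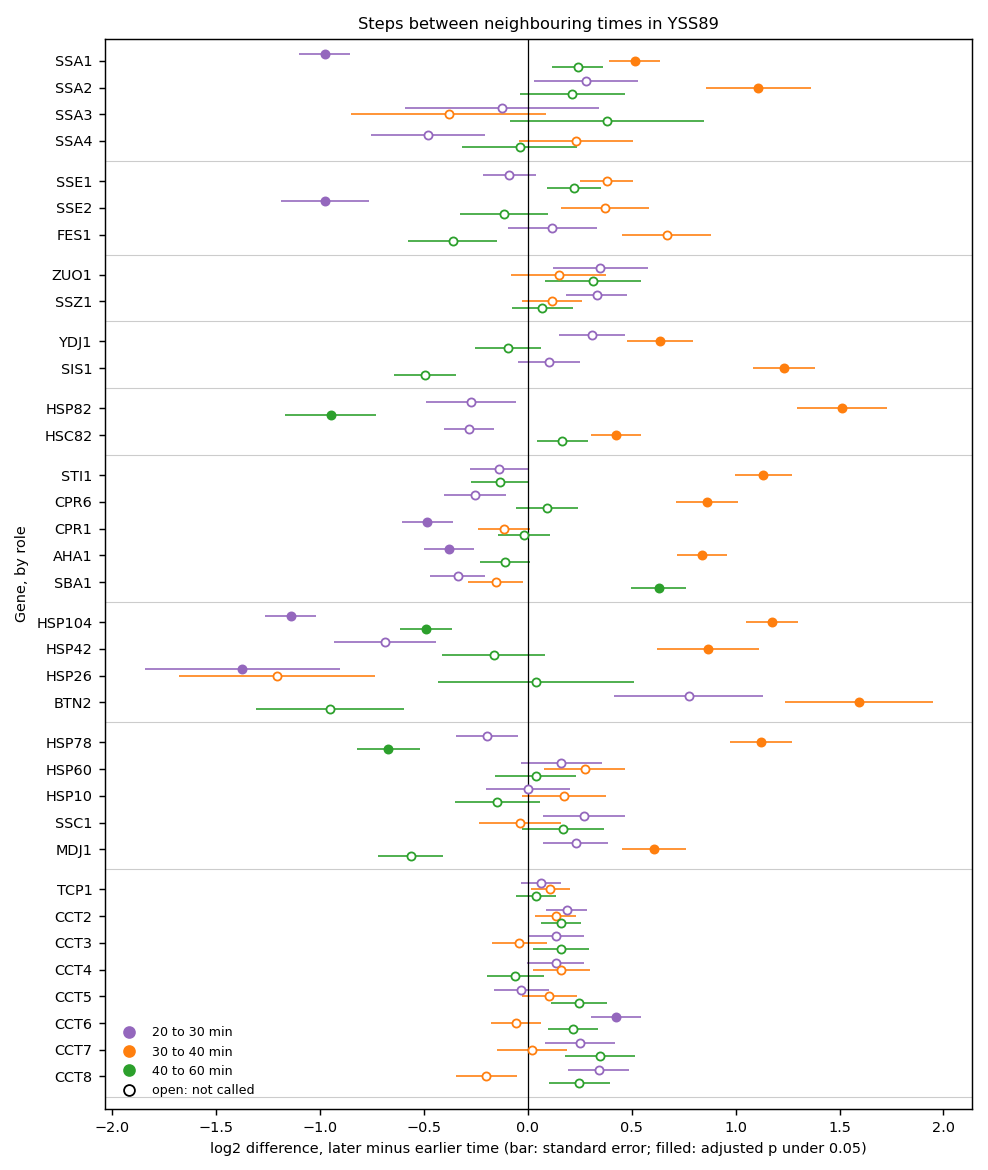
The log2 difference between neighbouring times in YSS89 (horizontal axis) for each chaperone gene (vertical axis, by role), with the SE as a bar and filled points for called genes. The 14 filled orange points of the step from 30 to 40 min all lie right of 0, and none belongs to a CCT or ribosome-bound gene.

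The strains already differed before galactose. At 0 min 4 members were higher and 12 lower in YSS89, beside 17.8% and 10.2% of all genes. The lower members included BTN2 (-2.37, SE 0.357, adjusted p = 6.72e-05), SSA4 (-1.89, SE 0.275, adjusted p = 4.8e-05), HSP26 (-1.81, SE 0.471, adjusted p = 0.00673) and HSP42 (-1.27, SE 0.246, adjusted p = 0.000669). Of these only HSP26 overlapped between the strains. The higher members were YDJ1 (0.76, and 0.48 on deposited values), CCT2 (0.36), CCT4 (0.42) and CCT5 (0.39). With median centring the split was 0 higher and 21 lower, and CCT2 and CCT5 were at -0.063 and -0.0091. The median of all genes was then -0.16, with 1999 of the 5656 genes called. The CCT4 call was lost without replicate a or c at 0 min of YSS37, or replicate c at 0 min of YSS89 (range 0.34 to 0.48 with any 1 array left out), and the CCT5 call without replicate a or b at 0 min of YSS37, or replicate a or c at 0 min of YSS89 (range 0.25 to 0.55 with any 1 array left out).

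No round held arrays of both strains at 0 min, and 2 of the 3 YSS89 arrays at 0 min were those of round 4. Without these 2, 6 of the 16 remained called, among them BTN2 (-2.05), SSA4 (-1.40) and STI1 (-0.67), and all 16 kept their sign. With the round as a block, which rests on the 1 YSS37 array of round 2, 0 were called, and BTN2 was -1.99 and HSP26 0.52. No within-round value of the strain difference at 0 min exists.

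At 30 min the strains lay furthest apart. YSS89 had 23 members lower and 5 higher than YSS37, beside 20.0% and 23.4% of all genes, and the members' median was -0.65 against 0.071. The largest were HSP26 (-2.81, SE 0.471, adjusted p = 9.38e-05), HSP82 (-1.88, SE 0.218, adjusted p = 1.83e-06), HSP104 (-1.73, SE 0.124, adjusted p = 5.63e-09) and HSP42 (-1.68, SE 0.246, adjusted p = 2.26e-05), and none of the 4 overlapped. The 5 higher members were TCP1, CCT2, CCT4, CCT6 and CCT8, at 0.31 to 0.48, and the CCT6 call was lost without replicate a or b at 30 min of YSS37, or replicate a or b at 30 min of YSS89 (range 0.23 to 0.41 with any 1 array left out). At 30 min the CCT4 call was lost without replicate b of YSS37 or b or c of YSS89. The CCT8 call was lost without replicate a or b of YSS37 or a or c of YSS89. None of the 5 calls remained with the round as a block. On deposited values the split was 2 higher and 21 lower, without CCT4, CCT6 and CCT8. With median centring it was 1 higher and 22 lower. No round held arrays of both strains at 30 min, and with the round as a block all 28 kept their sign and 10 remained called, among them HSP82, HSP104 and HSP42 but not HSP26 (-1.44).

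At 60 min YSS89 had 5 members higher and 8 lower, beside 16.5% and 11.4% of all genes. HSP26 (-3.16, SE 0.471, adjusted p = 8.76e-05) was the lowest, and MDJ1 (-0.60), CPR1 (-0.60) and HSP78 (-0.56) were also lower. The higher members were 5 CCT genes, with CCT2 at 0.59 (SE 0.0985, adjusted p = 0.000277). With median centring the split was 1 and 7. In round 2, which held 1 array of each strain at 60 min, all 13 kept their sign. Those arrays came from different chip lots, so the lot is not separated from the strain there. With the round as a block 2 remained called, HSP26 and CCT2. CPR1 was -0.39 on deposited values, still called. The HSP78 call was lost without replicate c at 60 min of YSS89 (range -0.67 to -0.44 with any 1 array left out). Those of CCT4, CCT5, CCT7, HSP82 and SSE2 were each lost without any of several single arrays, while 7 of the 13 calls remained with any 1 array left out.

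The difference of the responses sets the change in YSS89 against that in YSS37. A negative value means a change more downward, or less upward, in YSS89. At 30 min 6 members had a negative and 0 a positive called difference, beside 11.0% and 6.72% of all genes. YDJ1 had risen in YSS37 (1.18) and was at -0.12 in YSS89, while HSP104 had fallen in both, with -0.59 in YSS37 and -1.50 in YSS89. The differences were those of YDJ1 (-1.30, SE 0.224, adjusted p = 0.000535), SSA1 (-1.20), HSP82 (-1.06), AHA1 (-0.93, SE 0.171, adjusted p = 0.000973), HSP104 (-0.90, SE 0.175, adjusted p = 0.00141) and CPR1 (-0.64). On deposited values CPR1 was 0.048, so its sign depends on the scaling, and SSA1 was -0.62 and not called. YDJ1 was -0.85 on deposited values, still called, and -0.55 with median centring, not called. With median centring the split was 1 higher and 3 lower. With each strain's change taken within a round 1 of the 6 remained called, SSA1, and all 6 kept their sign. The call of HSP82 was lost without replicate a at 0 min or b or c at 30 min of YSS37, or replicate b at 30 min of YSS89 (range -1.32 to -0.89 with any 1 array left out).

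At 60 min 5 members had a positive and 2 a negative called difference, beside 5.45% and 8.42% of all genes. For SSA4 and HSP42 the positive value goes with a fall in YSS37 that was larger than the difference measured in YSS89, as given above. BTN2 and STI1 are given above, SSA4 was 1.51 (SE 0.388, adjusted p = 0.0141), and HSP42 (1.05), CPR6 (0.64) and YDJ1 (-0.69) had adjusted p values between 0.0444 and 0.0498. CPR1 was -0.71, SE 0.175, adjusted p = 0.0111, and on deposited values -0.31. Both other scalings gave only higher members, 4 on deposited values and 12 with median centring, and YDJ1 was 0.015 under the latter. The median of all genes was -0.12 on deposited values, with 852 genes called, and 0.16 with median centring, with 986 called. Without the round 4 arrays 1 of the 7 remained called, BTN2, and with each strain's change taken within a round 0 did, though all 7 kept their sign. The HSP42 call was lost without replicate b or c at 0 min or a or c at 60 min of YSS37, or replicate b or c at 0 min or a, b or c at 60 min of YSS89 (range 0.92 to 1.25 with any 1 array left out). The CPR6 call was lost without replicate a or c at 0 min or a, b or c at 60 min of YSS37, or replicate b or c at 0 min or a, b or c at 60 min of YSS89 (range 0.55 to 0.72 with any 1 array left out), and the YDJ1 call without replicate a or b at 0 min or a, b or c at 60 min of YSS37, or replicate b or c at 0 min or a, b or c at 60 min of YSS89 (range -0.93 to -0.56 with any 1 array left out).

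From 30 to 60 min, a comparison that uses no array at 0 min, 9 members had a positive and 0 a negative called difference, beside 2.46% and 0.778% of all genes. They were HSP104 (1.26, SE 0.175, adjusted p = 0.00052), CPR6 (1.22, SE 0.212, adjusted p = 0.00378), SIS1 (1.04, SE 0.211, adjusted p = 0.00951), STI1 (1.03, SE 0.197, adjusted p = 0.00645), AHA1 (0.98, SE 0.171, adjusted p = 0.00378), SSA1 (0.95), HSP82 (1.26), HSP42 (1.46) and HSP78 (0.86). The HSP82 call was lost without replicate b or c at 30 min or a or c at 60 min of YSS37, or replicate b at 30 min or a or c at 60 min of YSS89 (range 1.09 to 1.52 with any 1 array left out). The HSP42 call was lost without replicate b at 30 min or a or c at 60 min of YSS37, or replicate b or c at 30 min or b or c at 60 min of YSS89 (range 1.27 to 1.75 with any 1 array left out), and the HSP78 call without replicate a or b at 30 min or b or c at 60 min of YSS37, or replicate b or c at 30 min or a or b at 60 min of YSS89 (range 0.75 to 1.04 with any 1 array left out). The other 6 remained with any 1 array left out. The median of the members was 0.54, beside 0.014 over all genes. All 9 were called on deposited values and 8 with median centring, where SSA1 (0.87) was not, and with each strain's change taken within a round 5 remained called and all 9 kept their sign.

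Among 55 related genes outside the list, 54 were measured, and 10 rose and 10 fell in YSS37 over the hour while 20 rose and 6 fell in YSS89. As shares of the 54 these are 18.5% and 18.5% in YSS37, near the 21.1% and 20.5% of all genes, and 37% and 11.1% in YSS89, beside 23.9% and 19.8%. HSF1, the gene of the heat shock factor, was not called in any comparison, with -0.06 (SE 0.163, adjusted p = 0.801) in YSS37 and 0.35 (SE 0.163, adjusted p = 0.0906) in YSS89 over the hour. Prefoldin genes, whose products hand actin and tubulin to CCT, had 3 of 6 higher in YSS37 and 4 of 6 in YSS89, with GIM3 at 0.83 (SE 0.144, adjusted p = 0.000113) and 0.46 (SE 0.144, adjusted p = 0.0129). JJJ3, a J protein of diphthamide synthesis, rose by 1.99 (SE 0.209, adjusted p = 3.82e-07) and 1.19 (SE 0.209, adjusted p = 0.000129), and CNS1, an essential Hsp90 and Hsp70 co-chaperone, by 1.45 and 0.94. The stress genes HSP31 and UBI4, for a glyoxalase and for polyubiquitin, were at -0.95 and -0.84 in YSS37 and at -2.63 and -1.80 in YSS89, all called lower. HSP30, a plasma membrane stress protein, fell by 2.77 (SE 0.541, adjusted p = 0.000357) in YSS37.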

How the data were processed

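The authors deposited 1 intensity per probe set and array on a linear scale, per the file headers, scaled to a common trimmed mean (100.1 on every array by recomputation). For the summary algorithm and its version, the sources used here give no name, and depth has no count on arrays, so the 24 arrays limit the precision. Of 9335 probe sets, 60 controls were left out. Probe sets naming 1 gene were kept, the brightest per gene. Values were taken as log2(intensity + 1.4), 1.4 being the table's 10th percentile, and quantile-normalized. limma 3.58.1 in R 4.3.3 fitted 8 group means over all arrays, with Benjamini-Hochberg adjustment over 5656 genes, and was tested on simulated data. Biological replicates are stated by the labels.

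The comparisons were each time against 0 min, 60 min against an earlier time, the strains at each shared time, and the difference of their responses. The 3 steps between neighbouring YSS89 times were added after the values had been seen. The text names members in every role by their calls and, of related genes, at most 4 per direction by size. The members and lists were chosen with earlier results of these data known. Alternatives covered the scaling, pseudocount, probe set choice, dim genes, rounds, replicate block and single arrays.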

Additional observations from a re-analysis of the deposited data

Results flagged for a closer look

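For 22 member values the change after galactose was called different between the strains. The test was limma's response difference, with Benjamini-Hochberg adjustment over all genes. They come from 3 linked comparisons, the last being the difference of the other 2, so they are not 22 separate results. Of all genes 6.72% and 11.0% were called higher and lower at 30 min. The shares were 5.45% and 8.42% at 60 min, and 2.46% and 0.778% from 30 to 60 min. At 30 min the signed change in YSS89 was below that in YSS37 for SSA1 (-1.20), YDJ1 (-1.30), HSP82 (-1.06), CPR1 (-0.64), AHA1 (-0.93) and HSP104 (-0.90), all log2 differences. At 60 min it was above for SSA4 (1.51), STI1 (0.80), CPR6 (0.64), HSP42 (1.05) and BTN2 (2.61), and below for YDJ1 (-0.69) and CPR1 (-0.71). From 30 to 60 min it was above for SSA1 (0.95), SIS1 (1.04), HSP82 (1.26), STI1 (1.03), CPR6 (1.22), AHA1 (0.98), HSP104 (1.26), HSP42 (1.46) and HSP78 (0.86). Many of these calls were lost without single arrays, within rounds or under another scaling, as given above, and the sign of CPR1 at 30 min depends on the scaling. Groups of 3 arrays were too small for a test of single outlying arrays.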

How the results depend on the processing

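Median centring shifted the median difference of all genes at 0 min from 0.043 to -0.16 between the strains, and deposited values to 0.21. The medians of the response differences moved from -0.026 and 0.028 at 30 and 60 min to -0.18 and -0.12 on deposited values. Of the single-gene results under the alternatives, 3564 kept direction and call, 700 lost the call and 16 reversed. With median centring SSA1 was 0.071 at 40 min and 0.29 at 60 min in YSS89, HSC82 0.47 and CPR1 0.34 at 30 min, CPR1 0.0044 at 40 min, and the response differences of CPR1 at 30 min and YDJ1 at 60 min were 0.34 and 0.015, while CCT2 and CCT5 at 0 min were -0.063 and -0.0091. On deposited values SSA1 was 0.18 at 60 min, HSC82 0.31 and CPR1 0.18 at 30 min, and the CPR1 response difference 0.048. With the round as a block SSE2 and HSP26 between the strains at 0 min were 0.11 and 0.52, and MDJ1 at 30 min was 0.0063 within round 2.

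Counts of called members moved by more than 1.5 times in these cases, and the cause was not tested. Some of these settings leave fewer arrays, and others use all 24. With only the groups compared the counts were 5 and 13 in YSS37 at 30 and 60 min, 0 from 30 to 60 min, 4 in YSS89 at 20 min, 1 from 40 to 60 min, 8 between the strains at 0 min, and 3 and 5 for the response differences at 60 min and from 30 to 60 min. The replicate block within each strain gave 3 in YSS37 from 30 to 60 min and 10 for the response difference at 30 min; a plain replicate block kept 223 single-gene calls and lost 5, and moved no count by over 1.5 times. In their deviations from the group means, same-letter arrays correlated with a median of 0.1234 in YSS37 and 0.0117 in YSS89. Arrays of different letters had medians of -0.082 and 0.005. The letters were not taken to pair samples, although in YSS37 same-letter arrays deviated together more than the others, with overlapping ranges. The round as a block gave 0 in YSS37 from 30 to 60 min, 1, 11 and 15 in YSS89 at 20, 30 and 60 min, 0, 10 and 2 between the strains at 0, 30 and 60 min, and 2 for the response difference at 60 min. Within round 2 the YSS89 counts were 1, 7, 11 and 12 at 20, 30, 40 and 60 min, 8 from 20 to 60 min, 2, 0 and 0 for the steps, and 1 between the strains at 60 min. Within round 3 they were 5 from 20 to 60 min and 2, 9 and 1 for the steps. Without both round 4 arrays they were 1 at 20 min, 6 between the strains at 0 min and 2 for the response difference at 60 min. The response difference at 60 min had 12 calls with median centring and 4 on deposited values, the strain difference at 60 min 8 with median centring, and with each strain's change taken within a round the response differences had 1, 0 and 5.

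With 1 array left out the counts ran from 7 to 12 and 19 to 21 in YSS37 at 30 and 60 min and 0 to 4 from 30 to 60 min. In YSS89 they ran from 5 to 7, 15 to 21, 18 to 22 and 19 to 23 at 20, 30, 40 and 60 min, 13 to 17 from 20 to 60 min, and 4 to 7, 8 to 14 and 1 to 2 for the steps. Between the strains they ran from 13 to 18, 20 to 26 and 8 to 14 at 0, 30 and 60 min, and for the response differences from 5 to 10, 4 to 8 and 6 to 13. The median SE of a difference was 0.171, and 0.242 for a response difference.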

Other observations

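Counts of related genes outside the list over the hour are read beside the shares of all genes called higher and lower, 21.1% and 20.5% in YSS37 and 23.9% and 19.8% in YSS89. Of 11 genes for chaperones and folding factors of the endoplasmic reticulum (ER), 5 rose in YSS89 and 1 in YSS37, the latter below the share of all genes, and 0 fell in either. SEC63, the ER J protein of protein import, rose by 0.97 (SE 0.233, adjusted p = 0.00224) in YSS89, and HLJ1, an ER-membrane J protein, rose by 0.78 (SE 0.143, adjusted p = 0.000212). Of 8 other Hsp90 partners 4 rose in YSS37 and 5 in YSS89, and CPR7, the paralog of CPR6, rose by 0.75 (SE 0.215, adjusted p = 0.00828) in YSS37. Of 9 other mitochondrial chaperone genes 3 fell in YSS37, while 1 rose and 1 fell in YSS89, both below the shares of all genes. Of 7 other stress protein genes 5 fell in YSS37, and 4 fell and 1 rose in YSS89, with HSP12, a membrane-associated stress protein, at -0.37 (SE 0.116, adjusted p = 0.0152) and -1.13 (SE 0.116, adjusted p = 2.15e-07). The strains' responses were not compared for these counts.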
